A study of Mus musculus with 6 samples.

Results

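miR-126a is the microRNA (miRNA, a short RNA that guides silencing complexes to matching mRNAs) of the hairpin Mir126a in mice. It was measured in heart cardiomyocytes by small RNA sequencing. The deposited table was searched for mature rows named miR-126a, and 2 of its 1974 mature rows were found, the 3p and the 5p arm of the hairpin. Both were measured in all 6 libraries of the series, and both passed the filter on low counts in each comparison below. The libraries come from C57BL/6 mice and fall into 4 groups: 2 libraries of adult LncSync-/- hearts (knockout), 2 of adult wild-type hearts, 1 of e13.5 LncSync-/- hearts and 1 of e13.5 wild-type hearts (e13.5 is an embryonic stage counted in days after conception). LncSync is the long non-coding RNA that the knockouts lack by their label; miRNA counts do not measure it, so the genotype labels were not checked here. The labels give neither the adults' age, nor how the cells were isolated, nor whether an embryonic library pools several hearts.

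miR-126 is the best known endothelial miRNA. It is made from an intron of Egfl7, a gene for a protein secreted by endothelial cells, and in mice and zebrafish its loss leads to leaky or broken vessels. The 3p arm represses Spred1 and Pik3r2, which restrain signalling downstream of vascular growth factors, and the 5p arm represses Dlk1 in endothelial cells. Cardiomyocytes are not its usual source, and hearts are rich in capillaries.

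The sequences below are from RefSeq (GRCm38.p6, the same assembly as the authors' mm10) and show which strand and arm the counts refer to. Mir126a lies at chr2:26591357-26591429 on the plus strand, with its 3p arm at 26591402 to 26591423. In GENCODE vM21, the hairpin is intronic in 8 of the 9 Egfl7 transcripts that span it and touches an exon in 1, and in 6 of them the intron runs from 26591064 to 26591663. A second annotated hairpin, Mir126b, lies at chr2:26591363-26591420 on the minus strand, wholly inside Mir126a, so its arms are antisense to those of miR-126a. Capitals mark the seed, bases 2 to 8, which does most of the target pairing, except in the hairpin, where they mark the 3p arm.
mir-126a hairpin: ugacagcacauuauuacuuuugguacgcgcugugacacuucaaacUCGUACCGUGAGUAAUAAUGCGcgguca
miR-126a-3p: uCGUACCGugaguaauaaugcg
miR-126b-5p: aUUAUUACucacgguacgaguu
miR-126b-3p: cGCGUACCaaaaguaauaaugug
A run of 19 bases of miR-126b-5p is complementary to miR-126a-3p. No other of the 1738 mature entries in the RefSeq table had the seed of miR-126a-3p. The antisense arms were almost unread: miR-126b-5p had 0 counts in every library, and miR-126b-3p had 0 and 3 counts in the adult knockouts, 2 and 1 in the adult wild types, 2 in the e13.5 knockout and 0 in the e13.5 wild type. All 6 values are at or under the 3 counts that a count of 0 allows. The counts of the locus were thus assigned almost wholly to miR-126a.

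Mature counts totalled 14347091 and 17608586 in the adult knockout libraries, 17933518 and 16794840 in the adult wild types, 2671957 in the e13.5 knockout and 8944552 in the e13.5 wild type. At these totals both arms were deeply sampled, with a lowest count of 2630 for the 5p arm in the e13.5 knockout. Counting error is therefore small beside the differences between libraries. PCR copies were not separated from molecules, so counting intervals cover counting error only. Nothing in the labels says that replicates came from separate animals, so the p-values rest on a spread among libraries that may be technical. The 6 cardiac muscle miRNAs looked for were miR-499, miR-208a, miR-208b, miR-1a, miR-133a and miR-133b. They made up 28.2% to 39.5% of counts in the adult libraries and 9.86% and 14.6% in the e13.5 knockout and wild type. Muscle miRNAs were thus abundant at both stages. At e13.5 nearly all of this share was miR-1a-3p, with 253429 counts in the knockout and 1251873 in the wild type. miR-499-5p had 5467 and 32659 counts there. The e13.5 share thus rests on miR-1a-3p and is a weak check of the labelled cell type. As these are bulk samples, fewer cells of a type and less RNA per cell cannot be told apart.

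miR-126a-3p was among the most abundant miRNAs of every library. It had 209415 and 466292 counts in adult knockout replicates 1 and 2, 472818 and 354622 in adult wild-type replicates 1 and 2, 41036 in the e13.5 knockout and 154109 in the e13.5 wild type. In CPM, which scales every library to the same total, these are 14596 and 26481 in the adult knockouts, 26365 and 21115 CPM in the adult wild types, 15358 CPM in the e13.5 knockout and 17229 CPM in the e13.5 wild type. The lowest of the 6 values belongs to adult knockout replicate 1 and the highest to adult knockout replicate 2, so the adult knockouts enclose all the other libraries. By count it ranked 20th and 9th of the mature miRNAs in the adult knockouts, 9th and 11th in the adult wild types, 11th in the e13.5 knockout and 8th in the e13.5 wild type. Its share of counts was 2.05% ± 0.84 (SD, n = 2) in the adult knockouts and 2.37% ± 0.371 (SD, n = 2) in the adult wild types. At e13.5 it was 1.54% in the knockout (Wilson 95% interval 1.521 to 1.551) and 1.72% in the wild type (1.714 to 1.731).

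miR-126a-5p, often called the passenger arm, was the rarer of the pair in each library. It had 27127 and 80762 counts in adult knockout replicates 1 and 2, 61773 and 40100 in adult wild-type replicates 1 and 2, 2630 in the e13.5 knockout and 15768 in the e13.5 wild type. This corresponds to 1891 and 4587 CPM in the adult knockouts, 3445 and 2388 CPM in the adult wild types, 984 CPM in the e13.5 knockout and 1763 CPM in the e13.5 wild type. The adult libraries lay above both e13.5 libraries, though adult knockout replicate 1 did so by little. Even the 5p arm ranked between 29th and 51st in the adult libraries, 73rd in the e13.5 knockout and 43rd in the e13.5 wild type.

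**Figure D1:**
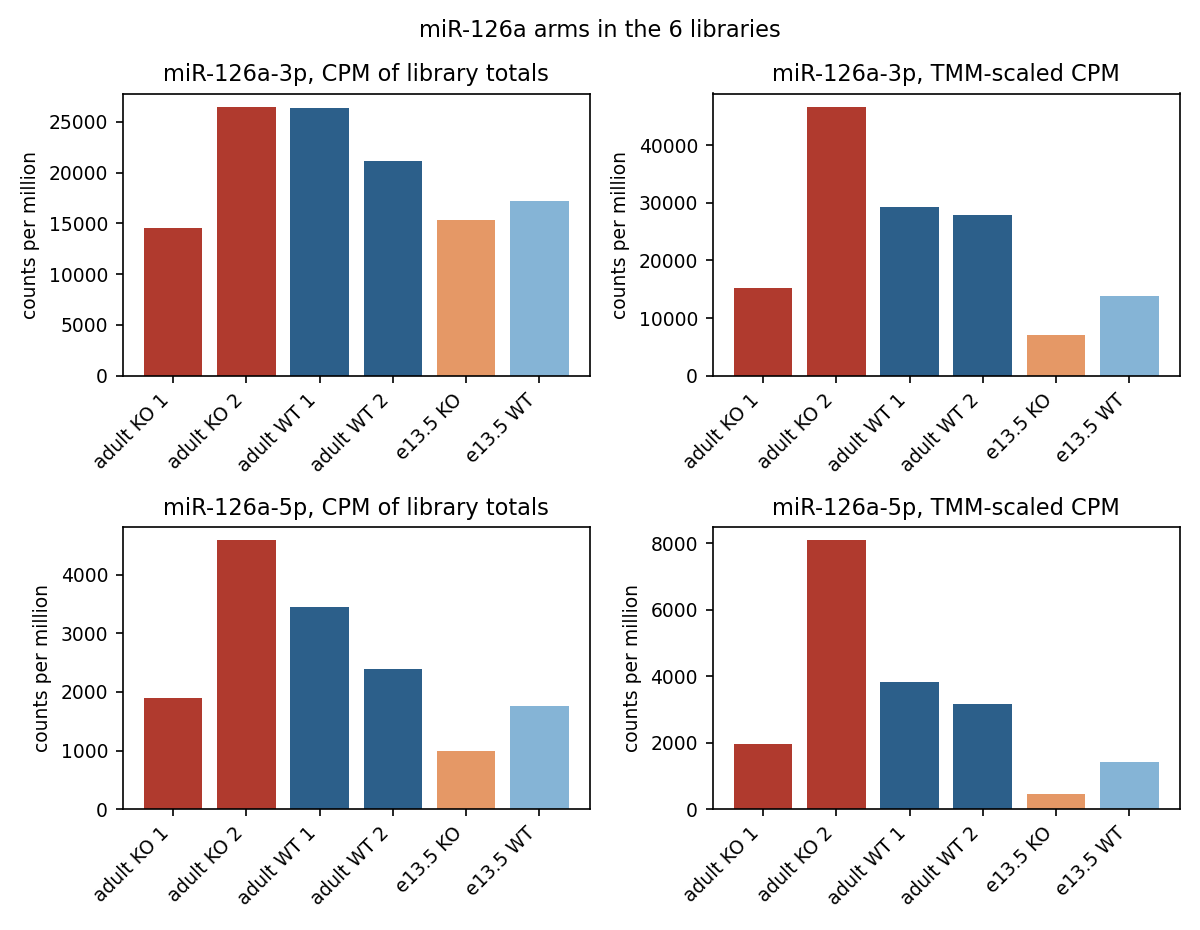
Levels of miR-126a-3p (top) and miR-126a-5p (bottom) in each of the 6 libraries, in CPM of library totals (left) and after TMM scaling over all libraries (right). Each bar is 1 library, in red shades for knockout (KO) and blue shades for wild type (WT). The 2 adult knockout bars are the lowest and the highest of the adult bars in every panel, and TMM scaling pulls the adult and e13.5 libraries apart.

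The order of the groups depended on the scaling. On library totals, the 3p arm averaged 20539 ± 8404 CPM in adult knockouts and 23740 ± 3712 CPM in adult wild types (SD, n = 2 each), followed downward by the e13.5 wild type and the e13.5 knockout. TMM scaling, which aligns the bulk of the miRNAs between libraries, multiplied library totals by factors of 0.9616 and 0.5674 for the adult knockouts, 0.9022 and 0.7554 for the adult wild types, 2.166 for the e13.5 knockout and 1.242 for the e13.5 wild type. After it the 3p arm averaged 30926 ± 22267 CPM in adult knockouts and 28589 ± 898 CPM in adult wild types (SD, n = 2 each), against 7092 CPM in the e13.5 knockout and 13878 CPM in the e13.5 wild type. The 5p arm averaged 5025 ± 4325 CPM in adult knockouts and 3490 ± 465 CPM in adult wild types (SD, n = 2 each) on the TMM scale, against 455 CPM in the e13.5 knockout and 1420 CPM in the e13.5 wild type. On both scales the adult knockouts and the adult wild types, neighbours in the order, differ by less than the spread of the knockouts.

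Between stages, both arms were higher in adults after TMM scaling. The adult over e13.5 log2 fold was 1.55 (SE 0.57, adjusted p = 0.0435) for miR-126a-3p and 2.24 (SE 0.77, adjusted p = 0.0345) for miR-126a-5p, by edgeR's quasi-likelihood test with genotype in the model and Benjamini-Hochberg adjustment over 679 miRNAs. All 4 adult libraries lay above both e13.5 libraries for each arm on this scale, as they did for 37.3% of the tested miRNAs. On library totals that held for the 5p arm, and for 24.9% of the tested miRNAs, but not for the 3p arm, since adult knockout replicate 1 lay below both e13.5 libraries. In this comparison 392 of the 679 miRNAs (57.7%) were past the threshold (261 without the e13.5 knockout) and 193 (28.4%) were higher in adults, so a call is the usual case here. Groups that do not overlap, in either direction, were also common, at 74.4% of the miRNAs on the TMM scale and 69.1% on library totals. The folds of the 3p and 5p arms stood at percentiles 65.2 and 72.1 of all tested miRNAs, whose median log2 fold was 0.06.

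Neither stage call held under the other scalings. With library totals the log2 fold was 0.44 (SE 0.42, adjusted p = 0.391) for the 3p arm and 1.19 (SE 0.55, adjusted p = 0.0751) for the 5p arm by edgeR. These settings move all miRNAs together: their median log2 fold was −0.93 on library totals and −0.72 under median-of-ratios factors. Relative to that median, the 3p arm was higher in adults by 1.48 under TMM, by 1.48 under median-of-ratios scaling and by 1.37 on library totals. The same values for the 5p arm were 2.18, 2.18 and 2.12. Without the e13.5 knockout they were 0.60 for the 3p arm and 0.85 for the 5p arm under TMM, at percentiles 55.7 and 58.6 of all miRNAs. Single libraries also decided the call: the 3p fold was 0.61 without adult knockout replicate 2 and 1.04 without the e13.5 knockout, at edgeR adjusted p = 0.113 and 0.291. The 3p call was also lost without adult wild-type replicate 1 (1.18, edgeR adjusted p = 0.217), adult wild-type replicate 2 (1.30, adjusted p = 0.18) or the e13.5 wild type (2.10, adjusted p = 0.0522). The 5p call was lost without the e13.5 knockout (1.29, edgeR adjusted p = 0.246), adult wild-type replicate 1 (1.99, adjusted p = 0.144) or replicate 2 (2.20, adjusted p = 0.0972), and without adult knockout replicate 2 its fold was 1.20 (adjusted p = 0.021). How the hearts of each stage were dissected, how their cells were isolated and when their libraries were made cannot be told apart from stage.

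In adults, the genotypes were not separated for either arm. The knockout over wild-type log2 fold was 0.17 (SE 0.56, adjusted p = 0.999) for miR-126a-3p and 0.58 (SE 0.65, adjusted p = 0.999) for miR-126a-5p (edgeR quasi-likelihood test over the 4 adult libraries). Of the 544 miRNAs tested, 4 (0.735%) were past the threshold, with 35 without knockout replicate 1 and 47 without knockout replicate 2. Knockout replicate 2 held 1.81 times the 3p level and 2.43 times the 5p level of knockout replicate 1 on library totals, whereas wild-type replicate 2 held 0.801 and 0.693 times the levels of wild-type replicate 1. The wild types lay between the knockouts for both arms on both scales, so the groups overlapped. Groups did not overlap for 23.9% of miRNAs on library totals and 23.2% on the TMM scale, and both knockouts lay above both wild types for 3.12% and 7.79%. The sign of the fold thus rests on which knockout library is kept. Without knockout replicate 1 the log2 folds were 0.76 (edgeR adjusted p = 0.188) for the 3p arm and 1.27 (adjusted p = 0.00346) for the 5p arm. Without knockout replicate 2 they were −0.91 (edgeR adjusted p = 0.0431) and −0.83 (adjusted p = 0.159). Each of these fits has a lone knockout library, which is assumed to vary as the wild-type pair does.

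The gap between the adult knockouts was set against that of other miRNAs. Over 136 miRNAs with at least 100 CPM in adults and on library totals, the median absolute log2 difference between the knockout replicates was 0.86, and the difference was 0.86 for the 3p arm and 1.28 for the 5p arm. Between the wild types the median absolute difference was 0.34, against 0.32 and 0.53 in size for the 3p and 5p arms. With its sign, knockout replicate 2 minus replicate 1 was 0.86 for the 3p arm, 1.28 for the 5p arm and −0.56 for the median miRNA on library totals, and 1.62, 2.04 and 0.19 on the TMM scale. Both arms were thus higher in replicate 2 than the bulk of miRNAs on either scale. The knockout replicates also differed in markers of other cell types. The erythroid list (5 arms of miR-451a, miR-144, miR-486a and miR-486b, all detected) summed to 2.23% and 0.565% of counts in adult knockout replicates 1 and 2, and to 1.57% and 1.04% in the adult wild types. The cardiac muscle list, with 12 of 13 arms detected, summed to 28.2% and 39.5% in the knockouts, against 31.6% and 33.4% in the wild types. The cardiac arms did not move together between knockout replicates 1 and 2. miR-1a-3p (81490 and 256336 CPM) and miR-499-5p (3786 and 7626 CPM) were higher in replicate 2. miR-133a-3p (182883 and 121551 CPM) and miR-133b-3p (11327 and 8621 CPM) were lower in it, so the sum follows miR-1a-3p. The part of these lists in the spread of miR-126a was not tested.

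**Figure D2:**
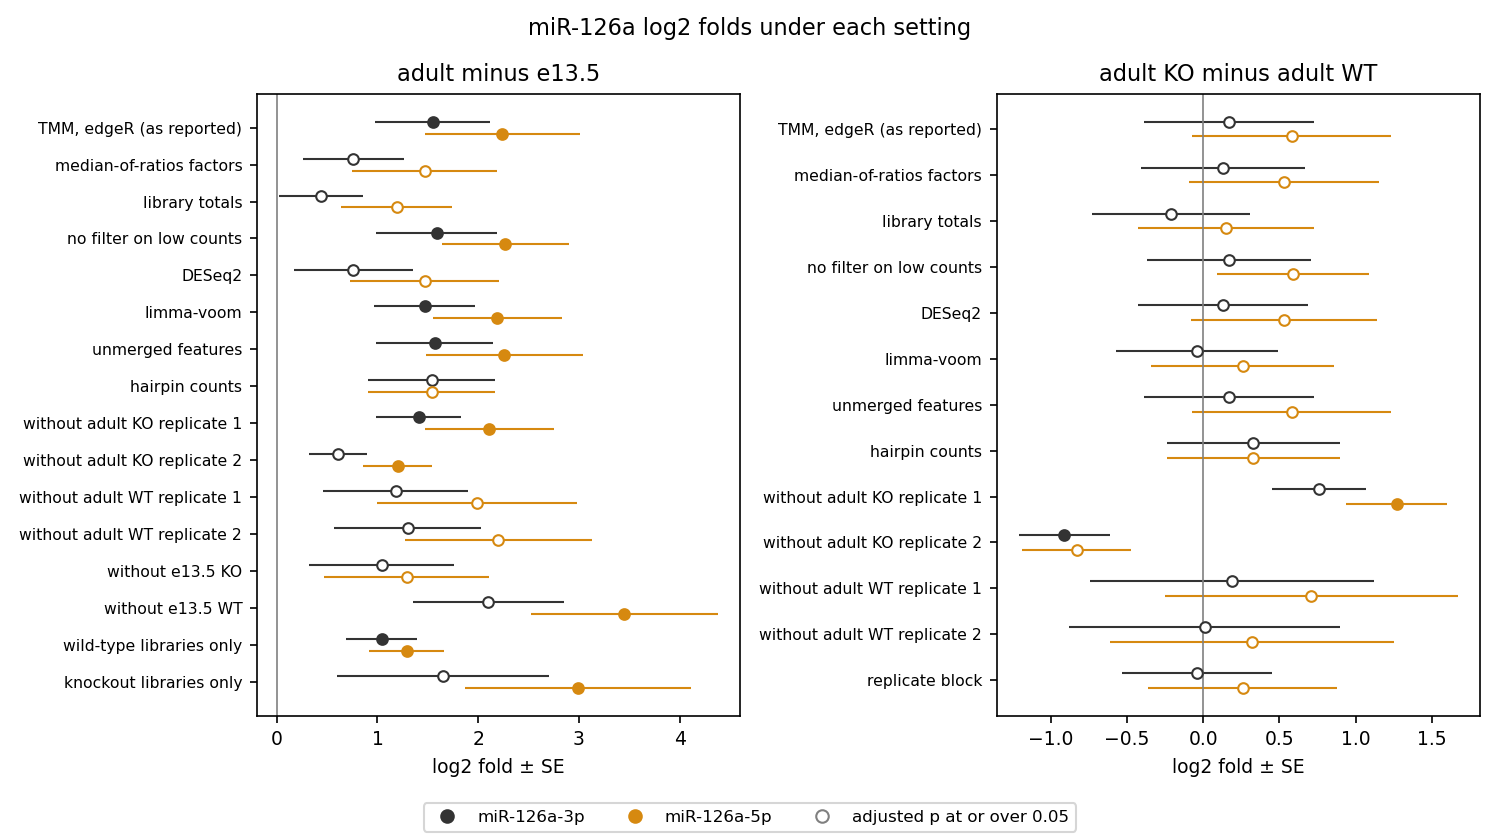
Log2 folds of miR-126a-3p (black) and miR-126a-5p (orange) with their SE, for adult minus e13.5 (left) and adult knockout minus adult wild type (right), under each setting. Filled points are past an adjusted p of 0.05. All stage folds lie above 0, many points are open, and the adult genotype folds lie on opposite sides of 0 depending on which knockout library is left out.

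Over both stages, with 3 libraries per genotype and stage in the model, the knockout over wild-type log2 fold was −0.24 (SE 0.50) for miR-126a-3p and −0.17 (SE 0.67) for miR-126a-5p, each at an edgeR adjusted p of 0.989. Here 5 of 679 miRNAs (0.736%) were past the threshold, and 3 without either adult wild-type library. The folds turned positive without adult knockout replicate 1 (0.07 and 0.14), the e13.5 knockout (0.10 and 0.51) or the e13.5 wild type (0.11 and 0.53). At e13.5 alone, the CPM ratio of knockout to wild type was 0.891 (95% counting interval 0.882 to 0.901) for the 3p arm and 0.558 (0.536 to 0.582) for the 5p arm on library totals. With TMM factors the same ratios were 0.511 and 0.32. Both arms were thus lower in the e13.5 knockout library on either scale, by an amount that the scaling sets, and with 1 library per genotype this has no replicate check. The difference between the adult and the e13.5 knockout effects had a log2 value of 1.09 (SE 0.99, edgeR adjusted p = 0.917) for the 3p arm and 2.18 (SE 1.13, edgeR adjusted p = 0.875) for the 5p arm, so a difference between stages was not shown. In that test edgeR called 0 of 769 miRNAs (0%), though 46 had an unadjusted p under 0.05. DESeq2 called 4 and limma 0, and edgeR called 87 without adult knockout replicate 1 and 40 without adult knockout replicate 2. The log2 values were 1.70 and 2.88 for the 3p and 5p arms without adult knockout replicate 1, and 0.01 and 0.77 without adult knockout replicate 2. In these fits the adult wild types are the only group with replicates, so the spread comes from that pair alone.

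The balance of the arms within the hairpin needs no scaling between libraries. The 3p arm made up 88.5% and 85.2% of arm reads in adult knockout replicates 1 and 2 and 88.4% and 89.8% in adult wild-type replicates 1 and 2. At e13.5 it made up 94.0% in the knockout (Wilson 95% interval 93.75 to 94.2) and 90.7% in the wild type (90.58 to 90.86). There were thus 7.72 and 5.77 reads of the 3p arm for each 5p read in the adult knockouts and 7.65 and 8.84 in the adult wild types, against 15.6 in the e13.5 knockout and 9.77 in the e13.5 wild type. The 5p arm thus had a larger share in each of the 4 adult libraries than in either e13.5 library.

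The mean log2 ratio of 3p to 5p was 2.89 in adults and 3.63 at e13.5, a difference of −0.74 (exact two-sided permutation test, p = 0.133, which is the smallest p that 4 against 2 libraries allow). Of 75 hairpins with at least 10 counts of both arms in every library, 73.3% had adult and e13.5 ratios that did not overlap. The shift of miR-126a was small among them, 60th of 75 in size, against a median absolute shift of 2.29. With its sign, the median shift was 0.43, opposite to that of miR-126a, which stood at percentile 33.3. Between adult knockouts and adult wild types the means were 2.74 and 3.04, a difference of −0.30 (exact two-sided permutation test, p = 0.667, with 0.333 the smallest possible), and the groups overlapped, whereas 17.3% of the hairpins had groups that did not. Between the e13.5 knockout and wild type the difference was 0.67, 49th of 75 in size.

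**Figure D3:**
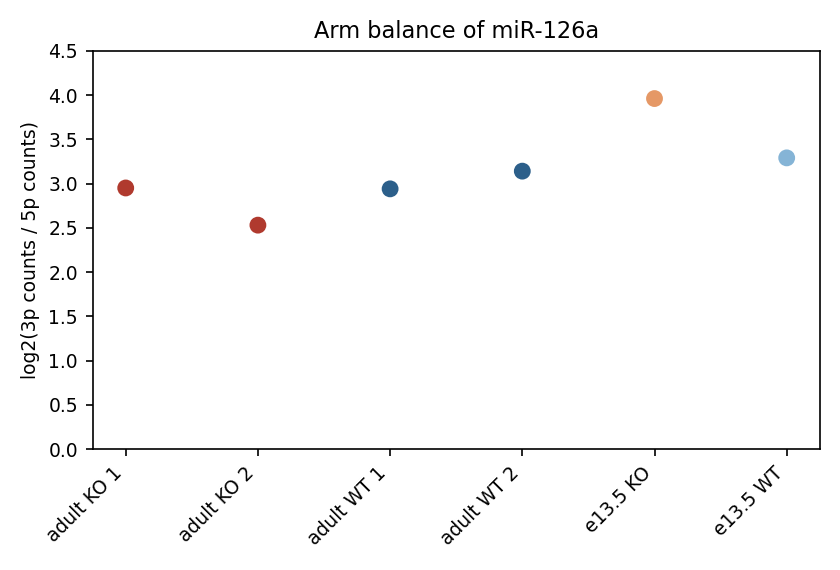
Log2 ratio of 3p to 5p counts of miR-126a, 1 point per library (red shades knockout, blue shades wild type). The e13.5 knockout (3.96) and wild type (3.29) lie above the 4 adult libraries, which run between 2.53 and 3.14.

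Nearly all reads of the hairpin lay in its arms. Reads of the hairpin outside both arms numbered 56 and 11 in adult knockout replicates 1 and 2, 14 and 13 in the adult wild types, 11 in the e13.5 knockout and 12 in the e13.5 wild type, of hairpin totals between 43677 and 547065. The hairpin's own count was therefore the sum of the arms for practical purposes.

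Other miRNAs linked to endothelial cells and blood vessel growth gave 17 of 28 arms higher in adults under TMM and 13 of 28 on library totals. The list held 15 names (miR-126b, miR-139, miR-10a, miR-10b, miR-23a, miR-23b, miR-24, miR-27a, miR-27b, miR-92a, miR-130a, miR-210, miR-218, miR-221 and miR-222), most of which other cell types also express. Of its 33 arms, 28 were tested, 17 were higher and 2 lower in adults, and 9 did not pass (edgeR, adjusted over all miRNAs), beside 28.4% higher and 29.3% lower over all miRNAs. On library totals 13 were higher and 3 lower, beside 17.7% and 38.7% over all miRNAs. The median log2 fold was 2.70, against 0.06 over all tested miRNAs. Among the 28, 4 arms had at most 3 counts in an e13.5 library. Of these, miR-23a-5p, named after its values were seen, had 0 counts in both and was at least 22.6-fold higher in adults, taking 3 counts over both e13.5 libraries as the floor on the TMM scale, and with it at that bound the median was again 2.70. Arms of other cell type lists were higher in adults too: 8 of 10 cardiac muscle arms were higher and 1 lower (median 4.06), and 5 of 9 leukocyte arms were higher and 1 lower (median 4.03). Of 10 smooth muscle and fibroblast arms, 3 were higher and 1 lower (median 1.15), and of 5 erythroid arms 2 were higher and 2 lower (median −0.54). These are counts under TMM. On library totals 5 cardiac muscle arms were higher and 1 lower, and 2 smooth muscle and fibroblast arms were higher and 4 lower (median 0.09). The leukocyte and erythroid counts were the same on both scales. The part of these lists in the stage difference of miR-126a was not tested. The most abundant arms of the endothelial and angiogenesis-linked list were miR-24-3p (log2 fold 4.80, edgeR adjusted p = 0.000197), miR-27b-3p (3.33, adjusted p = 0.00172), miR-23a-3p (6.70, adjusted p = 9.11e-05) and miR-23b-3p (5.75, adjusted p = 9.98e-05). All 4 come from the miR-23/27/24 clusters, which act in angiogenesis, and their close copies can share reads. miR-221-3p, which represses the receptor Kit in human endothelial cells, had a log2 fold of 6.93 (edgeR adjusted p = 9.81e-05). miR-27a-3p was at 4.88 (edgeR adjusted p = 0.00017) and the rarer arm miR-24-1-5p, with 4 counts in the e13.5 knockout and 25 in the e13.5 wild type, at 5.64 (adjusted p = 0.00032). The 2 lower arms, named after their values were seen, were miR-218-5p, which targets the Slit receptor Robo1, at −3.55 (edgeR adjusted p = 0.000509), and miR-10a-5p at −1.60 (adjusted p = 0.0281). Between adult genotypes, where edgeR called 0.735% of all miRNAs, the median log2 fold of the 28 arms was 0.07, beside 0.08 over all miRNAs.

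miR-126a-3p was set against these and other lists within each library, again free of scaling. For each 100 counts of the endothelial and angiogenesis-linked list there were 16.3 and 42.2 counts of miR-126a-3p in the adult knockouts and 31.9 and 23.9 in the adult wild types, against 70.1 in the e13.5 knockout and 90.9 in the e13.5 wild type. The embryonic libraries were thus the ones in which miR-126a-3p stood highest beside the sum of that list. In adults miR-24-3p, miR-27b-3p, miR-23a-3p and miR-23b-3p made up most of that sum. For miR-23a-3p the adult libraries had 12765 to 20588 CPM, against 323 in the e13.5 knockout and 331 in the e13.5 wild type. Other abundant arms went the other way, such as miR-218-5p, with 122 to 204 CPM in adults against 2921 and 5245. This order therefore follows the miR-23/27/24 arms and not the list as a whole. Per 100 counts of the cardiac muscle list, the adult knockouts had 5.18 and 6.70 and the adult wild types 8.34 and 6.33. The e13.5 knockout had 15.6 and the e13.5 wild type 11.8. The leading arm of that list, miR-1a-3p, overlapped between stages, at 81490 to 256336 CPM in adults against 94848 and 139959 at e13.5. miR-133a-3p had 121551 to 182883 CPM in adults against 1479 and 1925 at e13.5, so this order rests mainly on miR-133a-3p. Against smooth muscle and fibroblast miRNAs (miR-143, miR-145a, miR-145b, miR-199a, miR-199b and miR-214) the order was turned round, with 16.8 and 26.7 in the adult knockouts and 35.2 and 17.9 in the adult wild types, against 7.15 in the e13.5 knockout and 4.84 in the e13.5 wild type. The leading arm of that list was miR-143-3p, at 78282 and 93335 CPM in the adult knockouts and 65759 and 110487 CPM in the adult wild types, against 210707 CPM in the e13.5 knockout and 349750 CPM in the e13.5 wild type. It made up most of the list's counts in every library, so this order follows miR-143-3p and not the list as a whole. The next arm, miR-145a-5p, was higher in adults, at 5645 and 3043 CPM in the knockouts and 4477 and 4611 CPM in the wild types. At e13.5 it had 748 CPM in the knockout and 1125 CPM in the wild type. Of the list's 10 arms, 3 were called higher and 1 lower in adults under TMM.

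Blood cells were looked for by 2 lists. Leukocyte miRNAs, with 11 of 12 arms detected, made up 0.287% and 0.186% of counts in the adult knockouts and 0.284% and 0.215% in the adult wild types, against 0.0816% in the e13.5 knockout and 0.0492% in the e13.5 wild type. The erythroid list stood at 1.43% in the e13.5 knockout and 0.0748% in the e13.5 wild type, while miR-126a-3p differed little between them on library totals. For each 100 erythroid counts there were accordingly 65.5 and 469 of miR-126a-3p in the adult knockouts and 168 and 203 in the adult wild types, against 107 in the e13.5 knockout and 2300 in the e13.5 wild type. The ratios are a description, without a test.

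**Figure D4:**
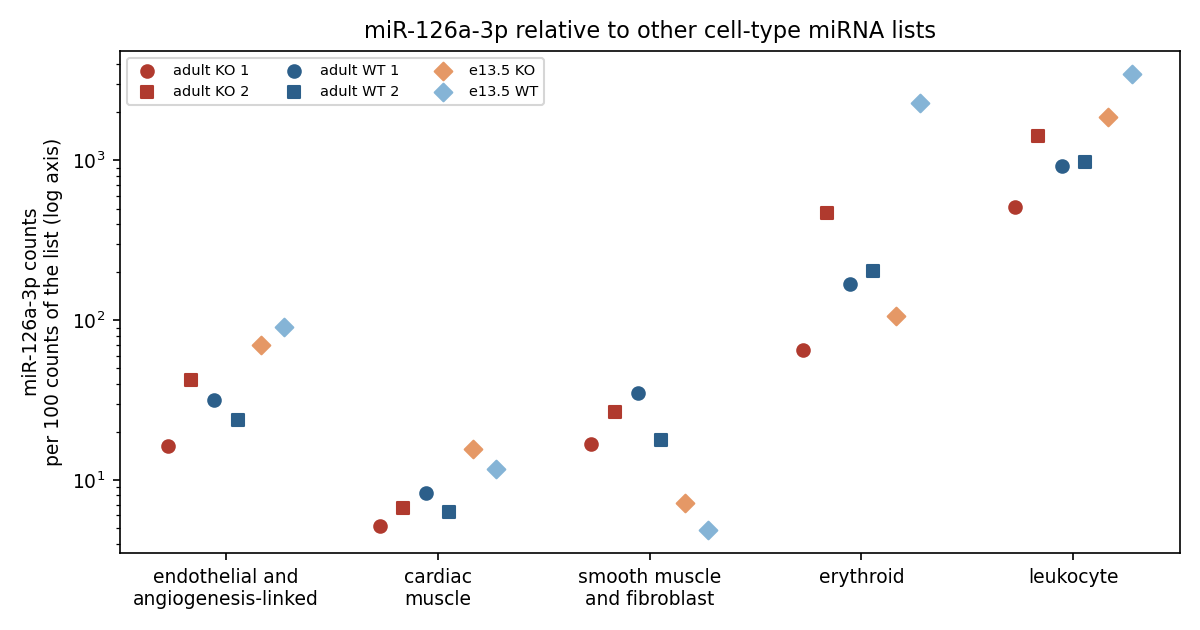
Counts of miR-126a-3p for each 100 counts of 5 miRNA lists, on a log axis, 1 point per library. The e13.5 libraries (diamonds) lie above the adult libraries for the endothelial, cardiac muscle and leukocyte lists and below them for the smooth muscle and fibroblast list.

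The miRNAs most like each arm were found by the root-mean-square difference of their log2 levels over the 6 libraries, each centred on its own mean, among 331 other miRNAs with a mean of at least 10 CPM. Library scaling cancels in this measure. The 5 nearest to miR-126a-3p were miR-152-3p, miR-30a-5p and miR-181a-1-3p (each 0.23), and miR-28a-5p and miR-28c (each 0.26), which have almost the same counts and may share reads. The median over all compared miRNAs was 1.64. For miR-126a-5p they were miR-499-5p (0.21), the miRNA of a cardiac myosin intron, miR-362-3p (0.34), miR-30a-5p (0.37), miR-30e-5p (0.41) and miR-125b-2-3p (0.42), against a median of 1.76. miR-30a-5p stood in both groups. The arms of miR-126a themselves were 0.44 apart, so that the 5p arm was 20th in likeness to the 3p arm and the 3p arm 7th in likeness to the 5p arm. No member of the endothelial and angiogenesis-linked list was among the 5 nearest of either arm. At most 28 of the 331 compared miRNAs belong to that list, so its absence from a group of 5 is not read as a result. The profiles share the 6 libraries and their stage difference, so likeness is a description.

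**Figure D5:**
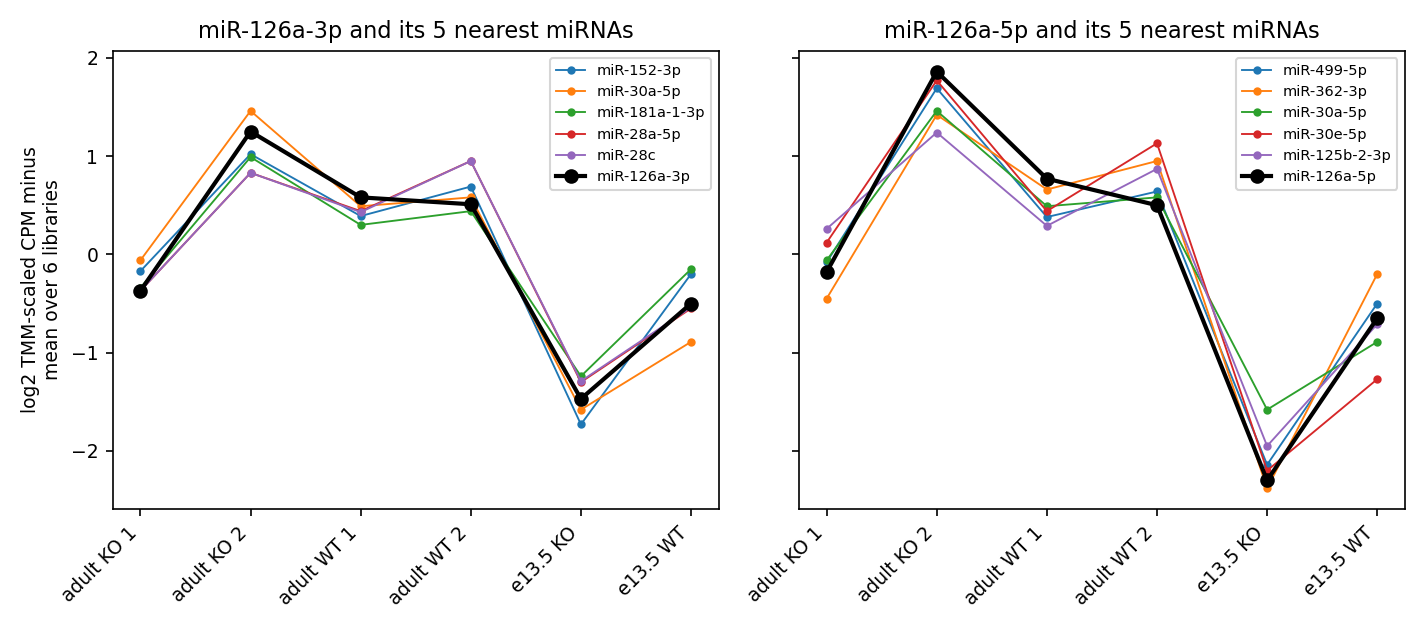
Log2 TMM-scaled CPM of miR-126a-3p (left, black) and miR-126a-5p (right, black) with the 5 miRNAs nearest to each, every line centred on its mean over the 6 libraries. The lines peak in adult knockout replicate 2 or adult wild-type replicate 2 and are lowest in the e13.5 knockout.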

How the data were processed

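The authors deposited 1 table of read counts per miRNA, not normalised, with hairpins and mature arms as separate features and 1 column per library. Per the labels, RNA was extracted with TRIZOL and libraries were made with the NEXTFLEX Small RNA kit. Per the submitters' processing notes, the genome build was mm10. How reads were trimmed, aligned and counted, and how those matching more than 1 miRNA were assigned, is not given in the sources used here. Of 3208 features, 1234 were hairpins and 1974 mature, and 22 mature features with counts within 1% of another's (total at least 20, at least 3 libraries) were merged into it, leaving 1952. Columns of other samples numbered 0.

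Groups were compared by edgeR's quasi-likelihood test (edgeR 4.0.16 under R 4.3.3, glmQLFit, glmQLFTest, TMM, filterByExpr with a minimum count of 10) at an adjusted p of 0.05, on all 6 libraries (stage with genotype, genotype with stage, and the interaction of 4 group means) or the 4 adult libraries. Residual degrees of freedom were 3, 3, 2 and 2. The scripts were tested on simulated data with less spread between libraries than these data have. That checks the code and does not show how often real changes would be found here. DESeq2 1.42.0 and limma 3.58.1 (voom) were alternatives. Arm ratios used exact permutation over libraries (scipy 1.17.1). Named miRNAs were both arms of miR-126a and of miR-126b, of the endothelial list the 4 most abundant arms and up to 6 past the threshold by p, the leading arm of other lists where a result turned on it, and the 5 nearest patterns of each arm. The members and lists were chosen with earlier results of these data known.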

Additional observations from a re-analysis of the deposited data

Results flagged for a closer look

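Reads of the mir-126a hairpin outside both arms were more frequent in 2 of the 3 knockout libraries than in the wild type of the same stage. Adult knockout replicate 1 had 56 such counts, 0.0237% of the hairpin, against 0.00262% and 0.00329% in the adult wild types, and 79.6% of 54 hairpins with at least 1000 counts in that library had no larger share. Adult knockout replicate 2 went the other way, with 0.00201%, below both adult wild types and the lowest share of the 6 libraries. The e13.5 knockout had 11, or 0.0252%, against 0.00706% in the e13.5 wild type, beside a median of 0.0198% over 40 hairpins in that library.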

How the results depend on the processing

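Both arms kept a higher level in adults than at e13.5 under every setting run, but not the call. For miR-126a-3p the call was lost with median-of-ratios factors and DESeq2 (log2 fold 0.76 each), library totals (0.44), hairpin counts (1.54) and knockout libraries only (1.65). For miR-126a-5p it was lost with median-of-ratios factors and DESeq2 (1.47 each), library totals (1.19) and hairpin counts (1.54). Leaving out each library gave 0.61 to 2.10 for the 3p arm and 1.20 to 3.45 for the 5p arm, and 261 to 381 miRNAs past the threshold, against 231 with knockout libraries only. The share of miRNAs higher in adults was 28.4% and lower 29.3% with TMM, and 17.7% and 38.7% with library totals. The endothelial list's 17 higher arms became 13 to 16 without single libraries and 14 with median-of-ratios factors, settings added after the data were seen.

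For adult knockout against wild type, the 3p log2 fold turned to −0.21 with library totals and −0.04 with limma, and leaving out each library gave −0.91 to 0.76 for the 3p arm and −0.83 to 1.27 for the 5p arm. The count of 4 became 9 without a filter, 0 with limma, and 5 to 47 without single libraries. Over both stages, leaving out each library gave −1.07 to 0.11 for the 3p arm and −1.32 to 0.53 for the 5p arm, and the count of 5 became 3 with hairpin counts and 3 to 5 without single libraries. The interaction ran from 0.01 to 1.70 for the 3p arm and 0.77 to 2.88 for the 5p arm without single adult libraries and turned to −0.04 for the 3p arm with library totals. Its count was 1 with library totals, 2 without a filter, 4 with DESeq2 and 0 to 87 without single libraries. Without an e13.5 library the interaction could not be fitted. The e13.5 ratio moved to 0.511 with TMM and 0.564 with median-of-ratios factors for the 3p arm, and to 0.32 and 0.353 for the 5p arm. The log2 arm ratio difference ran from −1.07 to −0.40 between stages and from −0.51 to −0.09 between adult genotypes. The cause was not tested for any of these.

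Adult replicate numbers are shared by both genotypes, but nothing in the labels pairs them (correlation of deviations 0.14 across 136 miRNAs). With the replicate block the adult log2 fold was −0.04 for the 3p arm and 0.26 for the 5p arm with 5 miRNAs past the threshold, and over both stages it was −0.41 and −0.46 with 5. Depth limits miR-126b and rare arms of the endothelial list at e13.5, where 3 counts correspond to 1.12 CPM in the knockout library.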
